A study of Mus musculus with 16 samples.

Results

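Bile acid receptor, synthesis and transport genes were followed in cultured primary mouse hepatocytes, the parenchymal cells of the liver. The set held 10 genes, namely the receptor Nr1h4 and its target Nr0b2, the synthesis enzymes Cyp7a1, Cyp8b1, Cyp27a1 and Cyp7b1, and the transporters Abcb11, Abcb4, Abcc2 and Slc10a1. They were found by their symbol in the platform annotation, and each had at least 1 of 12 probes on the array. A probe counted as detected on an array where its deposited detection p-value was under 0.01, and a gene was tested if detected on 2 or more arrays. Of the 10 genes, 6 passed and were tested among 7746 genes in all. Nr0b2, Cyp7a1, Abcb11 and Slc10a1 were detected on 0 of 16 arrays and are described from their raw intensities.

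The hepatocytes came from C57BL/6 mice of 6 to 8 weeks and had been infected with an adenovirus. One virus, here called shHDAC45, carried shRNA against the class IIa histone deacetylases HDAC4 and HDAC5, and the titles of the samples name the control virus GFP while the text on the design has shGFP. After infection the cells received forskolin, which activates adenylyl cyclase and raises cAMP, or its vehicle DMSO, for 2 h or 4 h. The 8 groups were shHDAC45 with forskolin or DMSO at 2 h and at 4 h, and GFP with forskolin or DMSO at the same times, with 2 Illumina bead arrays each. Every group was thus infected and carried a vector, and uninfected cells were not analysed here. The labels do not say whether both arrays of each group had their own mice or cultures, so p-values measure the spread between arrays, which may be technical.

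Hepatocytes make bile acids from cholesterol by a classic route that starts with Cyp7a1, with Cyp8b1 adding the hydroxyl group that sets the share of cholic acid, and by an alternative route through Cyp27a1 and Cyp7b1. The finished acids leave into the canaliculus through the pump Abcb11 (BSEP), with phospholipid moved by Abcb4 and conjugated organic anions by Abcc2 (MRP2), and return from blood through Slc10a1 (NTCP). Nr1h4 (FXR) is the nuclear receptor that senses bile acids; it induces Nr0b2 (SHP), a corepressor of bile acid synthesis genes, and export genes such as Abcb11.

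Promoters are shown for 3 genes whose signals are described below. Nr1h4 and Abcc2 had the smallest adjusted p-values of the set for a lower signal under shHDAC45. Cyp8b1 was higher under forskolin in GFP hepatocytes at 4 h. It was detected on forskolin arrays alone, so that comparison is not independent of the detection rule. Each line gives the 250 bases before a RefSeq start site in GRCm38.p6, 5′ to 3′ on the strand of the gene, at chr10:89506659-89506908 (minus strand) for Nr1h4, chr19:43782058-43782307 (plus strand) for Abcc2 and chr9:121916306-121916555 (minus strand) for Cyp8b1. The Nr1h4 start site lies inside the annotated gene, chr10:89454234-89533645. Capitals mark AGGTCA, the nuclear receptor half-site, read on either strand (TGACCT on the opposite strand).
Nr1h4: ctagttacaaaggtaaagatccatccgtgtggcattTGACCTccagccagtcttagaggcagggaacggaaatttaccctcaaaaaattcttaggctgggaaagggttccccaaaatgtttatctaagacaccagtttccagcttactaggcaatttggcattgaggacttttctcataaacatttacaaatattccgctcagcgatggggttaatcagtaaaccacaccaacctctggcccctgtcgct
Abcc2: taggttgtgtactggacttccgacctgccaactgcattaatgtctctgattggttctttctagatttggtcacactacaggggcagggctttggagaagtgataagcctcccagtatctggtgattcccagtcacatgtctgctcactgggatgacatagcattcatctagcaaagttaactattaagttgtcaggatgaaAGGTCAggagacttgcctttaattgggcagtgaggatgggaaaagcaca
Cyp8b1: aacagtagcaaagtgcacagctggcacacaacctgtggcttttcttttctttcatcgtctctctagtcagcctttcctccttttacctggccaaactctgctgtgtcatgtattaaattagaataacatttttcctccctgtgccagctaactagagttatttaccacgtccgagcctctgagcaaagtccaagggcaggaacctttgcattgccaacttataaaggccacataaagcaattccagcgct
Counted from the start site, the half-site began at -214 on the opposite strand in Nr1h4 and at -49 on the gene's strand in Abcc2. Cyp8b1 held none upstream, and its only match to TGACG, the half-site of the cAMP response element, began at 43 after the start site and is not printed. RefSeq promoters of 300 bases, 250 before and 50 after the start, were at hand for 8 of the 10 genes (not Cyp7a1 or Cyp7b1). Of 32851 promoters of that length, 16.3% held AGGTCA, 20.8% TGACG and 3.65% GTAAACA, the core of FOXO and FOXA sites, on either strand and with no overlap rule between the motifs. In the 8 genes, AGGTCA was also found in Abcb11 at -56 and in a further Slc10a1 window at -87, while GTAAACA matched in none. These matches describe the letters only.

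The 16 arrays carried 24613 probes, of which 8455 to 10082 per array were detected, and their median raw intensities lay between 103.2 and 117. Arrays of a group correlated at r = 0.992 to 0.994 and arrays of different groups at 0.886 to 0.986. Levels below are log2 signals after background correction and quantile normalization, and differences are log2 differences with a standard error (SE) from 1 limma fit over the 16 arrays. Hdac5 lay between 5.72 and 6.73 on the 8 shHDAC45 arrays and between 9.02 and 10.35 on the 8 GFP arrays, and Hdac4 lay between 5.74 and 6.99 on the shHDAC45 arrays and between 7.40 and 8.66 on the GFP arrays. Of 10 hepatocyte markers, 9 had a probe and 6 were detected (Trf, Ttr, Apob, Serpina1a, Hnf4a and Apoa1), while Alb, Tat and Fabp1 stood at background on all 16 arrays. Whether the probes of these 3 genes measure their transcripts was not tested, and the same holds for the genes of the set that were detected on no array, so a signal at background does not show that a gene was silent.

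The shRNA virus went with lower signal for most of the tested genes. Averaged over the 4 conditions, 5 of 6 were lower in shHDAC45 than in GFP hepatocytes (Nr1h4, Abcc2, Abcb4, Cyp7b1 and Cyp27a1) and Cyp8b1 was higher. Their median difference was -0.96, against 0.00 over all genes tested. In that comparison 73.7% of all genes were called, that is, passed an adjusted p of 0.05 (limma, Benjamini-Hochberg), and 36.2% were called lower and 37.5% higher. Under DMSO at 2 h, 4 genes were lower and 1 higher, where 50% of all genes were called and 25% were lower. Under forskolin at 2 h, 5 were lower and 1 higher, against 50.1% called and 24.7% lower over all genes. At 4 h, 5 were lower under DMSO and 6 under forskolin, with 52.7% called and 26.2% lower over all genes under DMSO, and 59.1% called and 29% lower under forskolin.

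**Figure D1:**
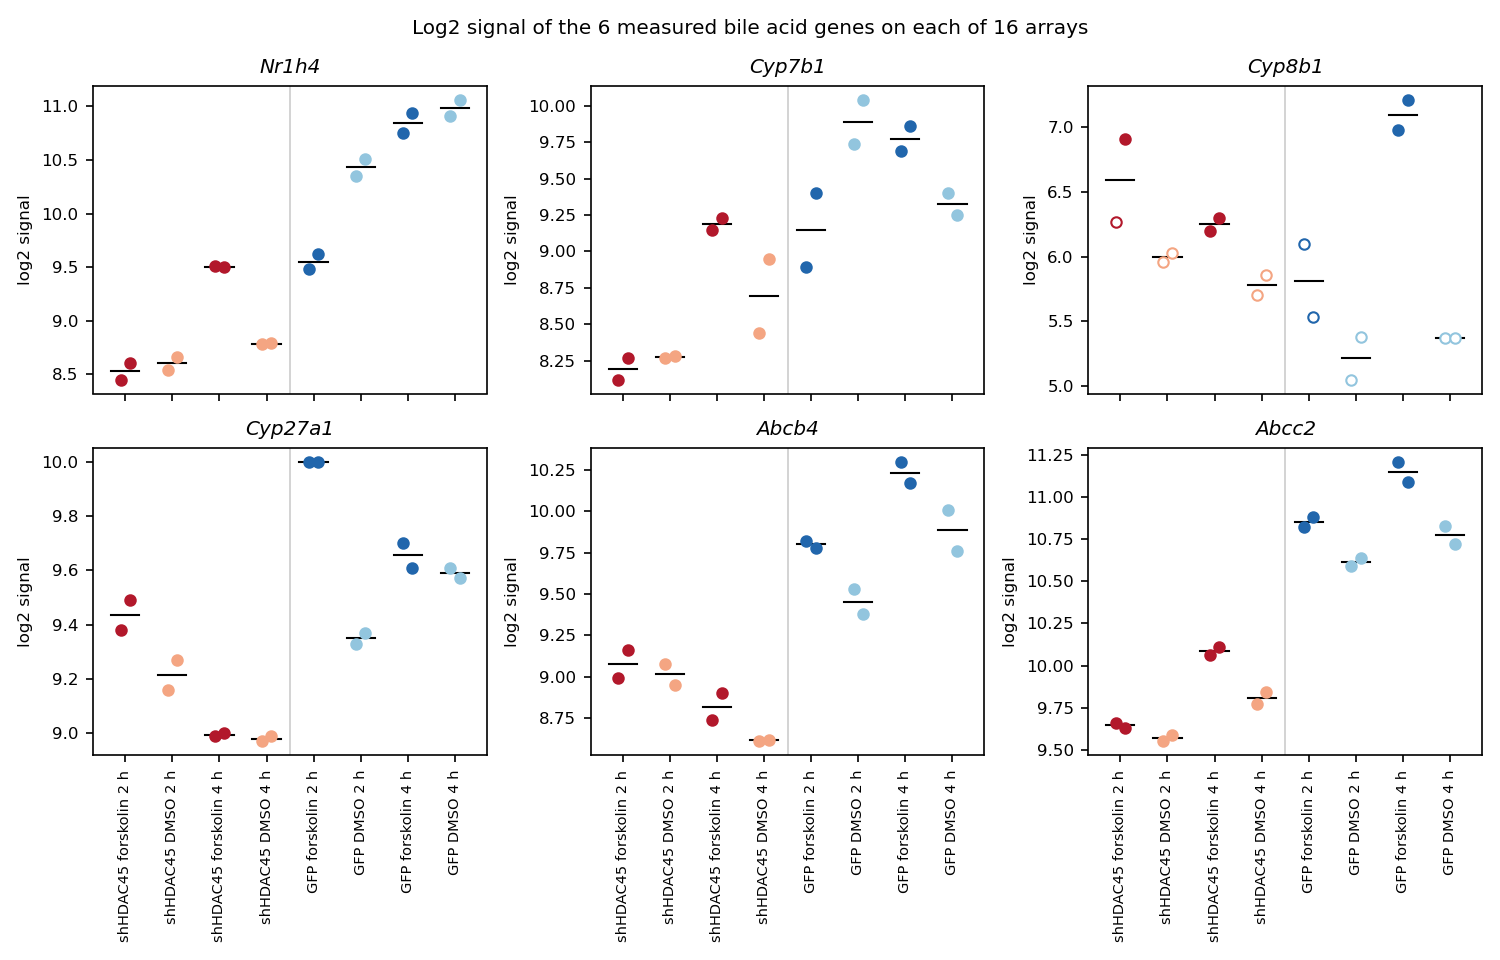
Log2 signal (y axis) of the 6 tested genes on each of the 16 arrays, by group (x axis, shHDAC45 left of the grey line, GFP right); points are arrays, filled where detected and open where not, and black lines are group means. Nr1h4, Abcb4 and Abcc2 are lower on the shHDAC45 arrays of each condition, and Cyp8b1 has open points on 11 of 16 arrays.

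Markers of liver cell types differed between the viruses as well. Their calls below are for the average over the 4 conditions, where 36.2% of all genes were called lower and 37.5% higher. The summed deposited intensity of the 9 hepatocyte markers on the array lay between 50240 and 67550 on shHDAC45 arrays. On GFP arrays it lay between 64250 and 85070. Of the 6 tested, 5 were lower under shHDAC45, with a median log2 difference of -1.45 over the 6. Such sums follow the brightest gene of a list most. These were Trf (log2 signal 15.24 to 15.8) for hepatocytes, Sox9 (9.54 to 12.61) for cholangiocytes and Acta2 (12.65 to 13.31) for stellate cells. The cholangiocyte sum was 1306 to 1808 in shHDAC45 against 2689 to 7172 in GFP, with 3 of 3 tested lower and Epcam and Cftr at background on all arrays. The endothelial sum was 1660 to 2933 in shHDAC45 against 1366 to 1606 in GFP, with 5 of 5 higher and Kdr at background. Tek, 1 of the 5, was detected on only 2 arrays. The stellate sum was 8577 to 11850 in shHDAC45 against 5856 to 9415 in GFP, with 3 of 3 higher and Lrat and Des at background. The macrophage sum was 1446 to 2199 in shHDAC45 against 1580 to 2377 in GFP, with 1 of 3 higher, 1 lower, and Clec4f and Cd5l at background. The part of cell makeup in the differences below was not tested, and in bulk RNA fewer cells of a type and less RNA per cell cannot be told apart.

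Nr1h4, the bile acid receptor, was lower in shHDAC45 hepatocytes in each of the 4 conditions. At 2 h its log2 signal was 8.45 and 8.60 in shHDAC45 and 9.48 and 9.62 in GFP hepatocytes under forskolin, and 8.54 and 8.66 in shHDAC45 against 10.35 and 10.51 in GFP under DMSO. At 4 h it was 9.51 and 9.50 in shHDAC45 and 10.75 and 10.94 in GFP hepatocytes under forskolin, and 8.78 and 8.79 in shHDAC45 against 10.91 and 11.06 in GFP under DMSO. No shHDAC45 array reached its GFP counterparts. The difference was -1.02 with forskolin and -1.83 with DMSO at 2 h, and -1.34 with forskolin and -2.21 with DMSO at 4 h (SE 0.11 each, largest adjusted p = 6.2e-06). The mean over the conditions was -1.60 (SE 0.054, adjusted p = 2.7e-11), a 3.03-fold lower signal, and it kept its direction and call under all 26 alternatives tried (-1.62 to -1.38).

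Under forskolin Nr1h4 was lower in GFP hepatocytes at 2 h and higher in shHDAC45 hepatocytes at 4 h. At 2 h it fell in GFP hepatocytes, with a mean of 9.55 under forskolin and 10.43 under DMSO (difference -0.88, SE 0.11, adjusted p = 6.9e-05; -1.44 against the DMSO arrays of 4 h). In shHDAC45 hepatocytes at 2 h the means were 8.53 under forskolin and 8.60 under DMSO, and their arrays overlapped (difference -0.07, 95% interval -0.31 to 0.16, adjusted p = 0.81). It rose at 4 h in shHDAC45 hepatocytes, to 9.51 under forskolin against 8.78 under DMSO (difference 0.73, SE 0.11, adjusted p = 0.00025). In GFP hepatocytes at 4 h the means of 10.85 under forskolin and 10.99 under DMSO had overlapping arrays (difference -0.14, adjusted p = 0.35 in limma). Against the DMSO arrays of 2 h the same forskolin arrays were 0.41 higher (adjusted p = 0.0091). Comparisons with DMSO arrays of the other time mix forskolin with time. Under DMSO alone, Nr1h4 in GFP hepatocytes was 0.56 higher at 4 h than at 2 h.

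The forskolin response of Nr1h4 differed between the viruses at both times. It was 0.81 higher on the log2 scale in shHDAC45 than in GFP hepatocytes at 2 h (SE 0.15, adjusted p = 0.0069) and 0.87 higher at 4 h (SE 0.15, adjusted p = 0.0035). Nr1h4 was the only gene of the 6 called at 2 h, where 5.96% of all genes were called, and 1 of 2 called at 4 h, where 8.57% were. Both calls held under all 26 alternatives. The response was also higher at 4 h than at 2 h within each virus, by 0.80 in shHDAC45 (SE 0.15, adjusted p = 0.0032) and by 0.74 in GFP hepatocytes (SE 0.15, adjusted p = 0.0035).

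Nr0b2, the corepressor that Nr1h4 induces, gave no measurable signal. Its raw intensity ran from 61.4 to 86.8 over the 16 arrays, and its lowest detection p-value was 0.487. The lowest signal called detected on any array was 142.4, on shHDAC45 forskolin 4 h array B. Tested without the filter on dim probes, Nr0b2 passed an adjusted p of 0.05 in 0 of 16 comparisons by limma, and 0 passed at an unadjusted p of 0.05.

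Among the synthesis enzymes, Cyp7b1, the oxysterol 7-alpha-hydroxylase of the alternative route, was lower under shHDAC45. Its log2 signal at 2 h was 8.12 and 8.27 in shHDAC45 and 8.89 and 9.40 in GFP hepatocytes under forskolin, and 8.27 and 8.28 in shHDAC45 against 9.74 and 10.04 in GFP under DMSO. At 4 h the values were 9.15 and 9.23 in shHDAC45 and 9.69 and 9.86 in GFP hepatocytes under forskolin, and 8.44 and 8.95 in shHDAC45 against 9.40 and 9.25 in GFP under DMSO. The arrays of the viruses did not overlap in any condition. The differences were -0.95 (adjusted p = 0.00082) and -1.62 (adjusted p = 1.1e-05) at 2 h under forskolin and DMSO, and -0.58 (adjusted p = 0.015) and -0.63 (adjusted p = 0.011) at 4 h (SE 0.18 each).

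The 4 h calls of Cyp7b1 were lost on leaving out some single arrays. Each such fit keeps 1 array in a group and so has less precision, whatever the value of the array left out. Under DMSO the call was lost without shHDAC45 DMSO 4 h array A (-0.38, adjusted p = 0.14) or GFP DMSO 4 h array A (-0.56, adjusted p = 0.071). Under forskolin it was lost without shHDAC45 forskolin 4 h array A (-0.55, adjusted p = 0.072) or GFP forskolin 4 h array B (-0.50, adjusted p = 0.090). The mean over the conditions, -0.95 (SE 0.092, adjusted p = 7.3e-07), stayed called throughout.

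Cyp7b1 fell under forskolin in GFP hepatocytes at 2 h, with means of 9.15 under forskolin and 9.89 under DMSO (difference -0.75, SE 0.18, adjusted p = 0.011). That call was lost without array A of GFP forskolin 2 h (-0.49, adjusted p = 0.11), without GFP DMSO 2 h array B (-0.60, adjusted p = 0.098), in a fit of the 4 compared arrays alone (adjusted p = 0.060) and against the DMSO arrays of 4 h (-0.18, adjusted p = 0.56). At 4 h the GFP means were 9.77 under forskolin and 9.33 under DMSO (difference 0.45, adjusted p = 0.082). That difference was called from the compared arrays alone (0.45, adjusted p = 0.048) and with no background correction (0.38, adjusted p = 0.035), and was -0.12 against the DMSO arrays of 2 h (adjusted p = 0.65). The response in GFP hepatocytes at 4 h was 1.19 above that at 2 h (SE 0.26, adjusted p = 0.0047). In shHDAC45 hepatocytes its forskolin difference was -0.08 at 2 h (adjusted p = 0.88) and 0.49 at 4 h (adjusted p = 0.053). The 4 h value was called under 8 of 27 alternatives, among them without shHDAC45 DMSO 4 h array B (0.75, adjusted p = 0.016) or either GFP forskolin 2 h array (0.49, adjusted p = 0.031). Without that DMSO array its response in shHDAC45 hepatocytes also differed between 4 h and 2 h (0.83, adjusted p = 0.046, against 0.57, adjusted p = 0.14, with all arrays).

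Cyp27a1, the mitochondrial sterol 27-hydroxylase that opens the alternative route, differed less between the viruses. At 2 h it was 9.38 and 9.49 in shHDAC45 and 10 and 10 in GFP hepatocytes under forskolin, and 9.16 and 9.27 in shHDAC45 against 9.33 and 9.37 in GFP under DMSO. At 4 h it was 8.99 and 9 in shHDAC45 and 9.70 and 9.61 in GFP hepatocytes under forskolin, and 8.97 and 8.99 in shHDAC45 against 9.61 and 9.57 in GFP under DMSO. The arrays were apart in all 4 conditions, by least under DMSO at 2 h. With forskolin the difference was -0.56 at 2 h and -0.66 at 4 h, and with DMSO at 4 h it was -0.60 (SE 0.088, largest adjusted p = 0.00016), but -0.14 with DMSO at 2 h (adjusted p = 0.21).

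Forskolin raised Cyp27a1 in GFP hepatocytes at 2 h, to a mean of 10 against 9.35 under DMSO (difference 0.65, SE 0.088, adjusted p = 0.00016). At 4 h the GFP means were 9.66 under forskolin and 9.59 under DMSO (adjusted p = 0.61), and the response was 0.58 lower at 4 h than at 2 h (difference -0.58, adjusted p = 0.0043). In shHDAC45 hepatocytes the forskolin difference was 0.22 at 2 h (adjusted p = 0.21) and 0.01 at 4 h (adjusted p = 0.96). A dimmer probe of Cyp27a1, detected on 14 arrays, gave 0.26 for forskolin in GFP hepatocytes at 2 h (SE 0.36, adjusted p = 0.67). Its mean virus difference was -0.63 (SE 0.18, adjusted p = 0.0065), but of the single conditions only DMSO at 4 h was called with it (-0.97, adjusted p = 0.036).

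Cyp8b1, the sterol 12-alpha-hydroxylase, was near background. It was detected on 5 of 16 arrays, namely both GFP and both shHDAC45 forskolin 4 h arrays and shHDAC45 forskolin 2 h array B. Its log2 signal at 4 h was 6.20 and 6.30 in shHDAC45 and 6.98 and 7.21 in GFP hepatocytes under forskolin, and 5.70 and 5.86 in shHDAC45 against 5.37 and 5.37 in GFP under DMSO. At 2 h it was 6.27 and 6.91 in shHDAC45 and 6.10 and 5.53 in GFP hepatocytes under forskolin, and 5.96 and 6.03 in shHDAC45 against 5.05 and 5.38 in GFP under DMSO. The highest values were those of the GFP forskolin 4 h arrays. Cyp8b1 passed the filter through forskolin arrays alone, so its comparisons of forskolin with DMSO are not independent of that filter and are given as a description.

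In GFP hepatocytes at 4 h Cyp8b1 was higher under forskolin, with means of 7.10 under forskolin and 5.37 under DMSO (adjusted p = 3.9e-05). As the DMSO arrays lay below background, the change is a bound of at least 1.37-fold higher. A group is called below background where the gene was detected on none of its arrays, so it can still hold some signal. In shHDAC45 DMSO 2 h, such a group, the detection p-values of Cyp8b1 were 0.030 and 0.017. Here and below, a bound divides the mean of the brighter group by a background level, which on each dim array is the dimmest signal still called detected, or that probe's signal where this is higher. Both viruses were measured under forskolin at 4 h, where Cyp8b1 was 0.85 lower in shHDAC45 hepatocytes (difference -0.85, SE 0.21, adjusted p = 0.0037). Under DMSO at 2 h the fit called a difference of 0.78 (adjusted p = 0.0073) with both groups below background, and under forskolin at 2 h it called 0.78 (adjusted p = 0.0076) with the GFP group below background, so no fold is given.

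The 2 h calls of Cyp8b1 rested on few arrays. Under DMSO the call was lost without GFP DMSO 2 h array A (0.61, adjusted p = 0.073), and under forskolin without shHDAC45 forskolin 2 h array B (0.46, adjusted p = 0.10) or GFP forskolin 2 h array B (0.50, adjusted p = 0.097), and from the compared arrays alone (adjusted p = 0.072). Its mean virus difference of 0.28 (SE 0.10, adjusted p = 0.027) mixed conditions of opposite sign, and was 0.10 with no background correction (adjusted p = 0.082). That mean was lost without any 1 of 7 arrays, with adjusted p up to 0.069: array B of shHDAC45 forskolin 2 h (0.20), DMSO 2 h (0.27), forskolin 4 h (0.27) and DMSO 4 h (0.26), GFP forskolin 2 h array B (0.21), GFP DMSO 2 h array A (0.24) and GFP forskolin 4 h array A (0.25).

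With DMSO groups below background, the forskolin responses of Cyp8b1 are bounds, and a fitted difference between them is no measured size. At 4 h the fit gave -1.25 between the viruses (SE 0.30, adjusted p = 0.020), with both DMSO groups below background. This call was lost without either shHDAC45 forskolin 4 h array (-1.20 and -1.30), shHDAC45 DMSO 4 h array B (-1.17), GFP forskolin 4 h array B (-1.14) or either GFP DMSO 4 h array (-1.25 each), with adjusted p up to 0.071. Between 4 h and 2 h in GFP hepatocytes the fit gave 1.12 (SE 0.30, adjusted p = 0.014), with 3 of the 4 groups below background, and the call was lost without GFP forskolin 2 h array B (0.84, adjusted p = 0.058), GFP DMSO 2 h array B (0.95, adjusted p = 0.057) or GFP forskolin 4 h array B (1.01, adjusted p = 0.052). Forskolin at 2 h gave Cyp8b1 differences of 0.60 in each virus that were not called (adjusted p = 0.15 in shHDAC45 and 0.058 in GFP). They were called without shHDAC45 forskolin 2 h array A in shHDAC45 (0.92, adjusted p = 0.042), and in GFP without either shHDAC45 forskolin 2 h array (0.60, adjusted p = 0.028) or GFP forskolin 2 h array B (0.88, adjusted p = 0.020), with the GFP groups below background.

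Cyp7a1, the rate-limiting enzyme of the classic route, was detected on 0 of 16 arrays, with raw intensities from 53.7 to 81.1 and a lowest detection p-value of 0.573. Without the filter it was called in 0 of 16 comparisons by limma, with 1 at an unadjusted p under 0.05.

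**Figure D2:**
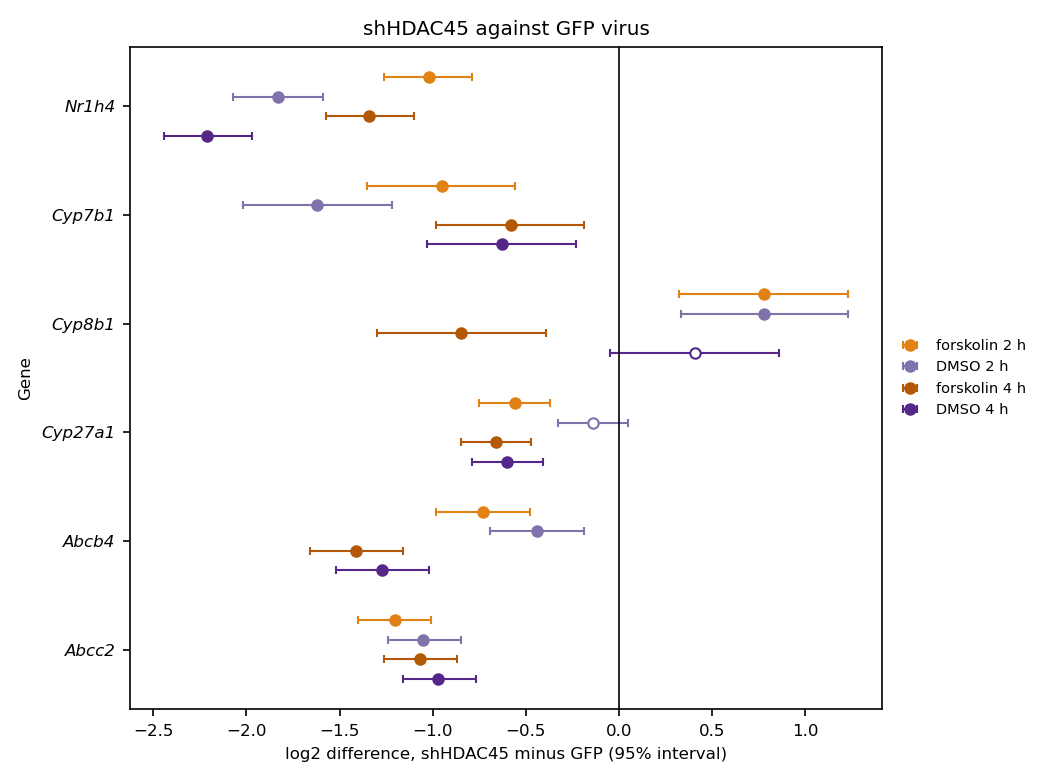
Log2 difference between shHDAC45 and GFP hepatocytes (x axis) for each of the 6 tested genes (y axis) in the 4 conditions; points are limma estimates, filled where the adjusted p is under 0.05, and bars are 95% intervals. Nr1h4 lies between -2.21 and -1.02 and Abcc2 between -1.20 and -0.97, while Cyp8b1 lies on both sides of 0.

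Abcc2, the canalicular exporter of conjugated organic anions, was lower under shHDAC45 by a nearly constant amount. At 2 h its log2 signal was 9.66 and 9.63 in shHDAC45 and 10.82 and 10.88 in GFP hepatocytes under forskolin, and 9.55 and 9.59 in shHDAC45 against 10.59 and 10.64 in GFP under DMSO. At 4 h the values were 10.06 and 10.11 in shHDAC45 and 11.21 and 11.09 in GFP hepatocytes under forskolin, and 9.77 and 9.84 in shHDAC45 against 10.83 and 10.72 in GFP under DMSO. The highest shHDAC45 array of any condition lay below the lowest GFP array. The difference was -1.20 and -1.05 at 2 h under forskolin and DMSO, and -1.07 and -0.97 at 4 h (SE 0.090, largest adjusted p = 1.5e-06), with a mean of -1.07 (SE 0.045, adjusted p = 1.7e-10), a 2.10-fold lower signal. A further probe of Abcc2, detected on 16 arrays, was called lower in each condition too, by differences of -0.80 to -0.57 (largest adjusted p = 0.016).

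Abcc2 rose under forskolin at 4 h in both viruses. The means in shHDAC45 hepatocytes were 10.09 under forskolin and 9.81 under DMSO (difference 0.28, SE 0.090, adjusted p = 0.029), and in GFP hepatocytes 11.15 under forskolin and 10.77 under DMSO (difference 0.38, SE 0.090, adjusted p = 0.0063). The shHDAC45 call was lost without any 1 of the 4 arrays compared: forskolin 4 h array A (0.30, adjusted p = 0.072), forskolin 4 h array B (0.26, adjusted p = 0.11), DMSO 4 h array A (0.25, adjusted p = 0.14) or DMSO 4 h array B (0.31, adjusted p = 0.066). The GFP call was lost without array A of GFP forskolin 4 h (0.31, adjusted p = 0.057) or GFP DMSO 4 h array B (0.32, adjusted p = 0.059). Fitted on the compared arrays alone, neither was called (adjusted p = 0.099 in shHDAC45 and 0.066 in GFP), and under median scaling the shHDAC45 difference was 0.24 (adjusted p = 0.057). With the further probe the differences were 0.27 in shHDAC45 (adjusted p = 0.25) and 0.40 in GFP hepatocytes (adjusted p = 0.10). At 2 h the differences were 0.08 in shHDAC45 (adjusted p = 0.74) and 0.23 in GFP hepatocytes (adjusted p = 0.087), and the responses of the viruses were not told apart at either time (-0.15 at 2 h, 95% interval -0.43 to 0.12, adjusted p = 0.55, and -0.10 at 4 h, 95% interval -0.37 to 0.18, adjusted p = 0.70).

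Abcb4, the canalicular phospholipid translocator, differed more between the viruses at 4 h than at 2 h under DMSO. At 2 h its log2 signal was 8.99 and 9.16 in shHDAC45 and 9.82 and 9.78 in GFP hepatocytes under forskolin, and 9.08 and 8.95 in shHDAC45 against 9.53 and 9.38 in GFP under DMSO. At 4 h it was 8.74 and 8.90 in shHDAC45 and 10.30 and 10.17 in GFP hepatocytes under forskolin, and 8.61 and 8.62 in shHDAC45 against 10.01 and 9.76 in GFP under DMSO. All shHDAC45 arrays lay below all GFP arrays. The difference was -0.73 (adjusted p = 0.00017) and -0.44 (adjusted p = 0.0064) at 2 h under forskolin and DMSO, and -1.41 (adjusted p = 3.7e-07) and -1.27 (adjusted p = 1.2e-06) at 4 h (SE 0.12 each). The call under DMSO at 2 h was lost without shHDAC45 DMSO 2 h array B (-0.37, adjusted p = 0.053) or GFP DMSO 2 h array A (-0.36, adjusted p = 0.060).

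After normalization, Abcb4 was higher under forskolin in GFP hepatocytes by 0.35 at 2 h (means 9.80 under forskolin and 9.45 under DMSO, SE 0.12, adjusted p = 0.047 in limma). At 4 h it was higher by 0.35 (means 10.24 under forskolin and 9.88 under DMSO, SE 0.12, adjusted p = 0.033). Its mean raw intensity in GFP hepatocytes at 2 h was 812.2 under forskolin and 823.4 under DMSO, so the raw signal was not higher then. The 2 h call was lost without any 1 of 14 arrays, all but the 2 GFP DMSO 4 h arrays (0.27 to 0.43, adjusted p up to 0.24), and against the DMSO arrays of 4 h the difference turned to -0.08. The call also went when dim probes were kept in (adjusted p = 0.067), with all probes as separate rows (adjusted p = 0.054) and from the compared arrays alone (adjusted p = 0.10). The 4 h call was lost without array A of GFP forskolin 4 h (0.29, adjusted p = 0.18), GFP forskolin 4 h array B (0.42, adjusted p = 0.050) or GFP DMSO 4 h array B (0.23, adjusted p = 0.25), under median scaling (0.30, adjusted p = 0.059) and from the compared arrays alone (adjusted p = 0.11). In shHDAC45 hepatocytes the forskolin difference was 0.06 at 2 h (adjusted p = 0.86) and 0.21 at 4 h (adjusted p = 0.18). The response did not differ between the viruses past the threshold at 2 h (-0.29, 95% interval -0.64 to 0.06, adjusted p = 0.36) or at 4 h (-0.14, 95% interval -0.50 to 0.21, adjusted p = 0.65).

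The exporter of bile salts Abcb11 and the sodium-dependent importer Slc10a1 were detected on 0 of 16 arrays. Abcb11 had raw intensities from 81.6 to 111.2 and a lowest detection p-value of 0.0766, and Slc10a1 from 64.1 to 96.9 with a lowest of 0.258. Without the filter both were called in 0 of 16 comparisons by limma, with 4 at an unadjusted p under 0.05 for Abcb11 and 2 for Slc10a1. A difference between groups was not detectable for them at this signal, which is not the same as no expression.

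**Figure D3:**
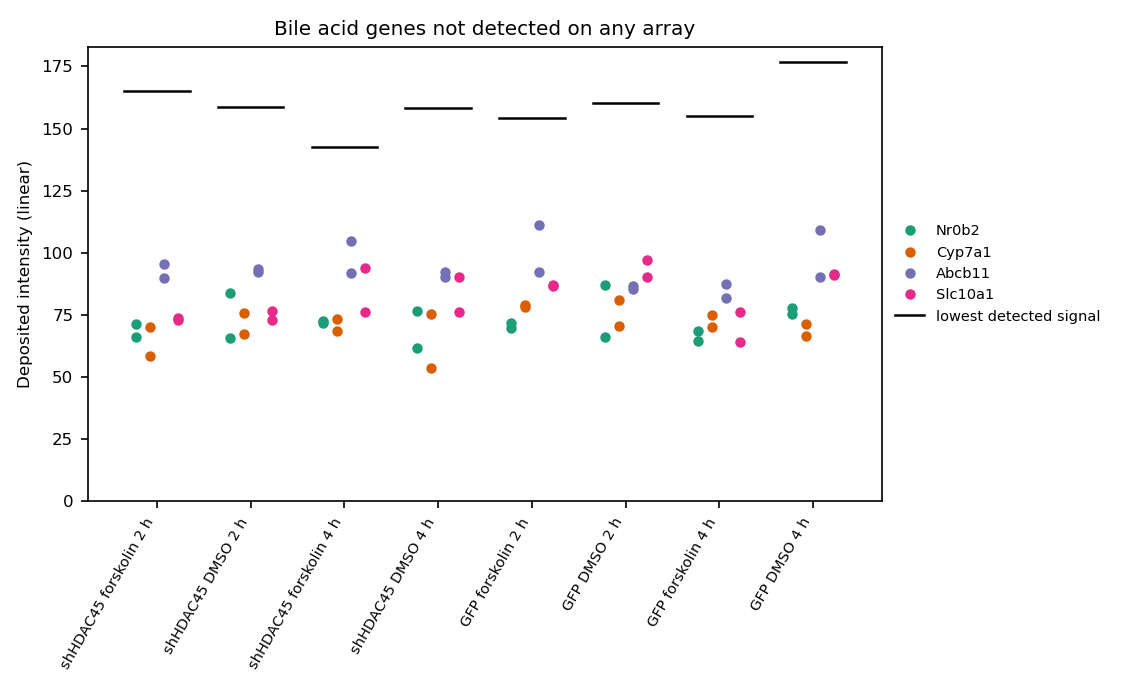
Raw deposited intensity (y axis, linear, from 0) of Nr0b2, Cyp7a1, Abcb11 and Slc10a1 on the 2 arrays of each group (x axis); points are arrays and black bars the lowest intensity called detected in that group. All points lie at or under 111.2, below the bars, the lowest of which is 142.4.

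By comparison, 4 of the 6 genes were called for forskolin in GFP hepatocytes at 2 h, where 21.3% of all genes were called. Cyp27a1 and Abcb4 were higher and Nr1h4 and Cyp7b1 lower. The raw intensity of Abcb4 was not higher there (mean 812.2 under forskolin and 823.4 under DMSO). At 4 h in GFP hepatocytes 3 were higher (Abcc2, Abcb4 and, from DMSO arrays below background, Cyp8b1), against 32% of all genes called. Of these, Cyp8b1 was tested only because of its forskolin arrays, so its call is not independent of the filter. In shHDAC45 hepatocytes limma called 0 of 6 at 2 h, with 2 at an unadjusted p under 0.05, against 4.80% of all genes; against the DMSO arrays of 4 h, Cyp8b1 (0.81), Cyp27a1 (0.45) and Abcb4 (0.46) were called. At 4 h in shHDAC45 hepatocytes 2 were higher (Nr1h4 and Abcc2), against 35.3%. The response differed between 4 h and 2 h for 4 genes in GFP hepatocytes (Nr1h4, Cyp7b1, Cyp27a1 and, with 3 groups below background, Cyp8b1; 26.6% of all genes) and for Nr1h4 alone of the 6 in shHDAC45 hepatocytes (19.8% of all genes).

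**Figure D4:**
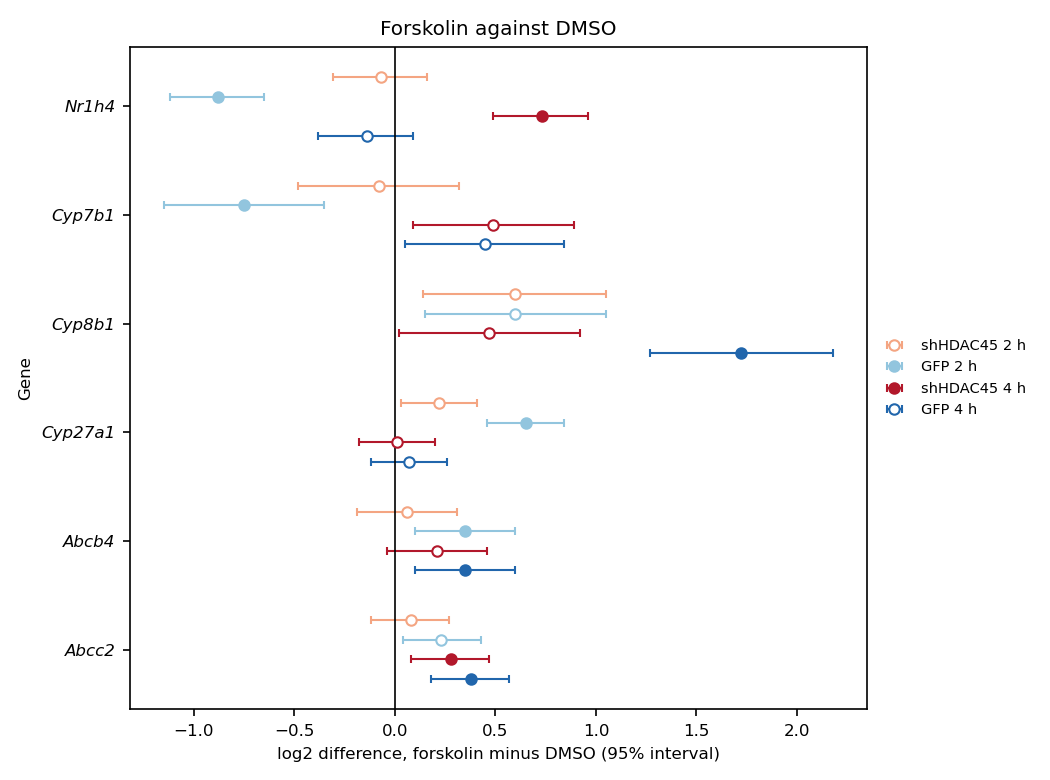
Log2 difference between forskolin and DMSO (x axis) for each of the 6 tested genes (y axis) by virus and time; points are limma estimates, filled where the adjusted p is under 0.05, and bars are 95% intervals. Nr1h4 lies at 0.73 in shHDAC45 hepatocytes at 4 h and at -0.88 in GFP hepatocytes at 2 h, and Cyp8b1 reaches 1.72 in GFP hepatocytes at 4 h, where its DMSO arrays were below background.

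The DMSO arrays themselves differed with time. In shHDAC45 hepatocytes limma called 0 of 6 between 4 h and 2 h, with 4 at an unadjusted p under 0.05, where 8.64% of all genes were called. Abcb4 came nearest there, with means of 8.61 at 4 h and 9.01 at 2 h (difference -0.40, SE 0.12, adjusted p = 0.050), and it was called without GFP DMSO 4 h array A or B (-0.40, adjusted p = 0.044). In GFP hepatocytes 2 of 6 rose, with 11.7% of all genes called: Nr1h4, with means of 10.99 at 4 h and 10.43 at 2 h (difference 0.56, SE 0.11, adjusted p = 0.0047), and Abcb4, with 9.88 at 4 h and 9.45 at 2 h (difference 0.43, SE 0.12, adjusted p = 0.029). Nr1h4 lost that call without GFP DMSO 2 h array A (0.48, adjusted p = 0.057) or GFP DMSO 4 h array B (0.48, adjusted p = 0.051). Abcb4 lost it without GFP DMSO 2 h array A (0.51, adjusted p = 0.058), GFP DMSO 2 h array B (0.35, adjusted p = 0.18) or GFP DMSO 4 h array A (0.31, adjusted p = 0.22), and from the compared arrays alone (adjusted p = 0.11). Cyp7b1 had means of 9.33 at 4 h and 9.89 at 2 h there (difference -0.56, adjusted p = 0.067), and was called under 8 of 26 alternatives, among them without either shHDAC45 DMSO 4 h array (adjusted p = 0.041) or either GFP forskolin 2 h array (adjusted p = 0.039).

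The change with time under DMSO differed between the viruses for 3 of 6 genes, where 11% of all genes were called; this comparison was chosen after seeing the data. From 2 h to 4 h each of the 3 changed in opposite directions in the viruses. Abcb4 changed by -0.40 in shHDAC45 and by 0.43 in GFP hepatocytes (difference -0.83, SE 0.16, adjusted p = 0.0048 in limma), and this call held without any 1 array. Cyp7b1 changed by 0.42 in shHDAC45 and by -0.56 in GFP hepatocytes, neither called (difference 0.99, SE 0.26, adjusted p = 0.027). The call on that difference was lost without either shHDAC45 DMSO 2 h array (0.98 and 1.00), shHDAC45 DMSO 4 h array B (0.73), GFP DMSO 2 h array B (0.84) or GFP DMSO 4 h array B (0.91). Cyp27a1 changed by -0.23 in shHDAC45 and by 0.23 in GFP hepatocytes, neither called (difference -0.46, SE 0.12, adjusted p = 0.031). The call on that difference was lost without any DMSO array but shHDAC45 DMSO 2 h array A (-0.49 to -0.41), and from the compared arrays alone (adjusted p = 0.081).

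The lowest group mean of Nr1h4 was 8.53, in shHDAC45 forskolin 2 h, and its highest 10.99, in GFP DMSO 4 h, a span of 2.46 against a median span of 0.93 over all genes tested. The spans were 1.88 for Cyp8b1, 1.70 for Cyp7b1, 1.62 for Abcb4, 1.58 for Abcc2 and 1.01 for Cyp27a1. Ordering the 8 group means of Nr1h4, the pairs of neighbours whose arrays overlapped were GFP DMSO 4 h and GFP forskolin 4 h, GFP forskolin 2 h and shHDAC45 forskolin 4 h, and shHDAC45 DMSO 2 h and shHDAC45 forskolin 2 h. For Cyp27a1 the arrays of shHDAC45 forskolin 4 h and shHDAC45 DMSO 4 h were the only ones of 7 such pairs to overlap.

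Over the 8 group means, which share arrays and normalization, Abcc2 followed Abcb4 (r = 0.90) and Nr1h4 (r = 0.89) among the genes of the set, while Cyp8b1 had r between -0.17 and 0.14 with the other 5. Of 3495 genes whose group means spanned at least 1, those most like Nr1h4 were C1galt1c1 (r = 0.986), Tgfbrap1 (r = 0.978) and Pbx2 (r = 0.978). The closest to Abcc2 was Prkacb (r = 0.992), a catalytic subunit of the cAMP-dependent protein kinase, and the closest to Abcb4 were Vamp2 and Epb41l4b (r = 0.991 each). Cyp7b1 was most like Crp (r = 0.989), which encodes C-reactive protein, and Cfb (r = 0.970), complement factor B, came after Bnip3l (r = 0.973). Shroom1 was closest to Cyp27a1 (r = 0.975) and Abcb9 to Cyp8b1 (r = 0.941).

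Of 47 further genes of bile acid handling, 24 were tested. Averaged over the 4 conditions, 18 were lower and 4 higher in shHDAC45 hepatocytes, with a median difference of -0.70, where 36.2% of all genes were called lower and 37.5% higher and the median over all genes was 0.00. Of the enzymes of side-chain shortening, conjugation and minor synthesis routes, 8 of 10 were lower and 2 higher (Ch25h, cholesterol 25-hydroxylase, and the thioesterase Acot8). Baat and Slc27a5, among the 8 and so among the 18, were detected on only 2 of 16 arrays each. They passed the filter through those arrays alone, and their calls rest on signals near background. Ch25h was below background in all groups but those of shHDAC45 at 4 h, through which alone it passed the filter. Slc27a2, an acyl-CoA synthetase, averaged 6.56 in shHDAC45 and 8.80 in GFP hepatocytes (difference -2.24, SE 0.081, adjusted p = 4.2e-11), and Scp2, the sterol carrier and thiolase, 12.19 in shHDAC45 and 13.18 in GFP (difference -0.99, SE 0.055, adjusted p = 2.6e-09). Slc27a2 lay below background in shHDAC45 hepatocytes under DMSO, where it was at least 2.65-fold lower at 2 h (adjusted p = 7.4e-07) and at least 4.32-fold lower at 4 h (adjusted p = 1.3e-08).

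Of the regulators, 8 of 10 were lower and 0 higher by limma on that average. Klb and Ppargc1a were among the 8 but lay below background in every DMSO group, so their averages include groups with no measured signal. Hnf4a, a liver transcription factor that acts on many bile acid genes, averaged 9.53 in shHDAC45 and 11.48 in GFP hepatocytes (difference -1.96, SE 0.059, adjusted p = 8e-12). Nr1i2 (PXR), a xenobiotic and bile acid receptor, averaged 7.40 in shHDAC45 and 8.89 in GFP (difference -1.49, SE 0.067, adjusted p = 3.4e-10), and Nr1h3 (LXR alpha), an oxysterol receptor, 8.66 in shHDAC45 and 9.79 in GFP (difference -1.14, SE 0.064, adjusted p = 3.4e-09). Foxo1 (-0.13, adjusted p = 0.099) and Smarca4 (0.06, adjusted p = 0.59) did not pass. Of the other transporters, 2 of 4 were lower (Abcc3 and Abcg5) and 2 higher, Abcc4 and Slco2b1, an organic anion importer that averaged 7.30 in shHDAC45 and 5.67 in GFP hepatocytes (difference 1.63, SE 0.073, adjusted p = 3.2e-10) with all 4 GFP groups but that of forskolin at 4 h below background.

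**Figure D5:**
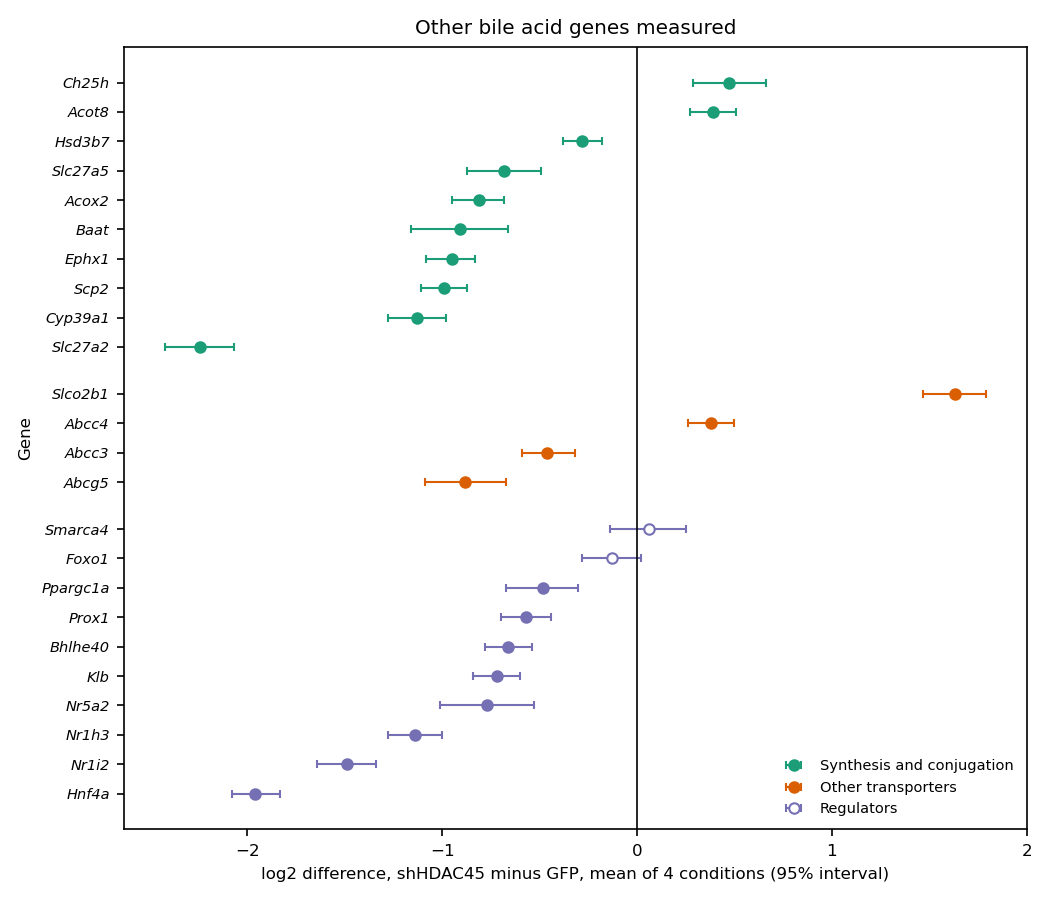
Log2 difference between shHDAC45 and GFP hepatocytes averaged over the 4 conditions (x axis) for 24 further bile acid genes (y axis, grouped by colour); points are limma estimates, filled where the adjusted p is under 0.05, and bars are 95% intervals. Of the 24 genes, 18 lie below 0 with a filled point, Slc27a2 farthest at -2.24, and Slco2b1 lies highest at 1.63.

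Under forskolin more genes of this wider list were called higher than lower. At 2 h 16 of 24 were not called in shHDAC45 hepatocytes and 12 of 24 in GFP hepatocytes. In shHDAC45 hepatocytes 8 of 24 were higher and 0 lower at 2 h by limma, where 2.29% of all genes were called higher and 2.52% lower. At 4 h in shHDAC45 hepatocytes 11 were higher and 3 lower, with 17.4% higher and 18% lower over all genes. In GFP hepatocytes 10 were higher and 2 lower at 2 h, with 10.6% higher and 10.8% lower over all genes. At 4 h in GFP hepatocytes 12 were higher and 3 lower, with 14.4% higher and 17.7% lower over all genes. Klb, the co-receptor through which FGF signals restrain bile acid synthesis, was below background in every DMSO group, as was Ppargc1a. Both passed the filter through forskolin arrays alone, so their forskolin comparisons are not independent of it. The counts of genes higher under forskolin given above include both. Klb was at least 2.03-fold higher under forskolin in shHDAC45 hepatocytes at 2 h (adjusted p = 2e-07) and at least 4.09-fold at 4 h (adjusted p = 1.7e-09), against bounds of 4.12 (adjusted p = 2.4e-10) and 7.79 (adjusted p = 4.9e-10) in GFP hepatocytes. Ppargc1a, a cAMP-induced coactivator, was at least 1.56-fold higher in shHDAC45 hepatocytes at 2 h (adjusted p = 1.6e-05) and at least 2.80-fold at 4 h (adjusted p = 1.3e-07), against 3.60 (adjusted p = 2.2e-08) and 3.58 (adjusted p = 3.8e-08) in GFP hepatocytes. Bhlhe40, a clock-linked repressor, averaged 12.86 under forskolin and 10.93 under DMSO in shHDAC45 hepatocytes at 2 h (difference 1.93, SE 0.11, adjusted p = 1.9e-07), and 13.73 under forskolin and 11.66 under DMSO in GFP hepatocytes (difference 2.06, SE 0.11, adjusted p = 2.8e-08).

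The response of this list differed between the viruses by the fit for 3 of 24 genes at 2 h and 4 of 24 at 4 h, where 5.96% and 8.57% of all genes were called. At 2 h the response was higher in shHDAC45 for Abcc3 (1.26, SE 0.18, adjusted p = 0.00076), the basolateral exporter MRP3. At 4 h it was higher for Abcc4 (0.90, SE 0.16, adjusted p = 0.0031) and Bhlhe40 (0.59, SE 0.16, adjusted p = 0.040). The other 4 calls, of Klb and Ppargc1a at 2 h and of Slc27a2 and Ch25h at 4 h, had 1 or 2 groups below background, so no size is given for them. For Nr1h4 the difference between forskolin and DMSO at 2 h was also higher in shHDAC45. It fell under forskolin in GFP hepatocytes (-0.88) and had no called change in shHDAC45 (-0.07).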

How the data were processed

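RNA of 16 samples was measured on Illumina bead arrays, and the authors deposited, per the file headers, an average intensity and a detection p-value for each of 24613 probes. The submitters' processing notes name GenomeStudio; its version is not given in the sources used here. The authors' normalized intensities were used as an alternative only, and their normalization method is not given in the sources used here. No column of sample values was left unused (0).

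Intensities were background-corrected from the detection p-values and quantile-normalized with limma 3.58.1 neqc (offset 16) in R 4.3.3. Probes with a detection p-value under 0.01 on 2 or more of 16 arrays and 1 annotated symbol were kept, and the brightest probe stood for a gene. Of the probes, 20984 had 1 symbol, 1 had several and 3628 had none. This gave 7746 genes. One limma fit of 8 group means (8 residual degrees of freedom) gave each contrast, with Benjamini-Hochberg adjustment over all genes and a threshold of 0.05. The fit was tested on simulated data. With no read depth on arrays, 2 arrays per group limit the precision.

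The named genes were the 10 of the set and up to 3 genes most like each tested one, taken from the closest. Up to 6 wider bile acid genes with the smallest adjusted p per comparison were named too. Other wider genes, named to fill small counts or for detection on few arrays, were chosen after their values were seen. The members and lists were chosen with earlier results of these data known. Sequences are from RefSeq (GRCm38.p6). Alternatives were other background, scaling, filter, variance and array choices.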

Additional observations from a re-analysis of the deposited data

Results flagged for a closer look

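The forskolin response (forskolin minus DMSO, log2) of 2 genes differed between the viruses by the interaction term of the limma fit. For Nr1h4 it was higher in shHDAC45 than in GFP hepatocytes, by 0.81 at 2 h (adjusted p = 0.0069) and by 0.87 at 4 h (adjusted p = 0.0035). At 2 h Nr1h4 fell in GFP hepatocytes (-0.88) with no called change in shHDAC45 (-0.07). At 4 h it rose in shHDAC45 hepatocytes (0.73) with no called change in GFP (-0.14). For Cyp8b1 at 4 h the fit gave -1.25 (adjusted p = 0.020), but both DMSO groups were below background, so this is no measured size.

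The response differed between 4 h and 2 h for Nr1h4 in shHDAC45 hepatocytes, by 0.80 (adjusted p = 0.0032 in limma). In GFP hepatocytes it differed by 0.74 for Nr1h4 (adjusted p = 0.0035), 1.19 for Cyp7b1 (adjusted p = 0.0047), 1.12 for Cyp8b1 (adjusted p = 0.014, with 3 of 4 groups below background and so no measured size) and -0.58 for Cyp27a1 (adjusted p = 0.0043).

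The change from 2 h to 4 h under DMSO differed between shHDAC45 and GFP hepatocytes by 0.99 for Cyp7b1 (adjusted p = 0.027 in limma), by -0.46 for Cyp27a1 (adjusted p = 0.031) and by -0.83 for Abcb4 (adjusted p = 0.0048). This comparison was chosen after seeing the data. The calls of Cyp7b1 and Cyp27a1 were lost on leaving out single arrays, and that of Abcb4 was not. The causes of these differences were not tested.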

How the results depend on the processing

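Of 96 results for single genes, 50 were called, and 33 of these kept their call and direction under all alternatives run (26 or 27 each), while 17 lost the call under at least 1. Without Cyp8b1, 24 of 25 differences between shHDAC45 and GFP hepatocytes were called and 21 of these held throughout. All calls rest on 2 arrays per group, and Cyp8b1 on signals near background.

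Counts of called genes among the 6 moved as follows, and the cause was not tested. For forskolin in GFP hepatocytes at 2 h the count was 4, with 2 from the compared arrays alone, 2 against the DMSO arrays of the other time, and 2 to 4 on leaving out 1 array. At 4 h it was 3, with 5 against the other DMSO arrays and 1 to 3 on leaving out 1 array. In shHDAC45 hepatocytes at 2 h it was 0, with 3 against the other DMSO arrays and 0 to 1 without 1 array. At 4 h it was 2, with 1 under median scaling and 1 to 3 without 1 array. The virus count under DMSO at 2 h was 5, with 3 to 5 without 1 array. The interaction of virus and forskolin was called for 1 gene at 2 h, or 2 with no background correction, and for 2 at 4 h, or 1 to 2 without 1 array. Between 4 h and 2 h under DMSO, 2 were called in GFP hepatocytes, with 1 from the compared arrays alone and 0 to 3 without 1 array. In shHDAC45 hepatocytes 0 were called, with 1 under no background correction, 1 under detection on at least 4 arrays, 1 with an intensity trend, 1 with the replicate block and 0 to 1 without 1 array. The time difference of the response in shHDAC45 hepatocytes was called for 1, or 1 to 2 without 1 array, and the virus difference over time under DMSO for 3, or 1 to 3.

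Signs turned for the following differences. Those against the DMSO arrays of the other time mix forskolin with time. Against the DMSO arrays of the other time, forskolin gave -0.08 for Abcb4, in GFP hepatocytes at 2 h, and in GFP hepatocytes at 4 h -0.12 for Cyp7b1 and 0.41 for Nr1h4 (adjusted p = 0.0091 in limma). In shHDAC45 hepatocytes it gave -0.16 for Abcc2 at 2 h, and at 4 h -0.19 for Abcb4 and -0.22 for Cyp27a1. Under median scaling Cyp27a1 in shHDAC45 hepatocytes at 4 h was -0.01 and the time difference of Abcb4 in GFP hepatocytes -0.04. Leaving out 1 array gave Abcb4 -0.02 to 0.14 in shHDAC45 hepatocytes at 2 h and -0.12 to 0.13 for its time difference in GFP, Cyp27a1 0.00 to 0.02 in shHDAC45 hepatocytes at 4 h, Cyp7b1 -0.21 to 0.30 for the virus interaction at 4 h, and Cyp8b1 -0.33 to 0.32 for that at 2 h, -0.45 to 0.20 for the time difference in shHDAC45 and -0.01 to 0.32 for DMSO time in GFP. In the reported fit, none of these turned differences but that of Abcb4 in GFP hepatocytes at 2 h was called.

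The deviations of arrays of equal letter correlated positively in all 28 pairs of groups (r = 0.05 to 0.31, median 0.22) and above 0.1 in 25, a hint from the data that the letter is shared. The rule used asked for more than 0.1 in every pair, and no label ties the letter to a batch or animal, so the fit without it was kept. With the letter as a replicate block, the counts were 5 and 4 for forskolin in GFP and 0 and 3 in shHDAC45 hepatocytes at 2 h and 4 h. The calls it added were Cyp8b1 in GFP hepatocytes at 2 h (0.60, adjusted p = 0.045 in limma), Cyp7b1 at 4 h in shHDAC45 (0.49, adjusted p = 0.019) and GFP hepatocytes (0.45, adjusted p = 0.032), and between 4 h and 2 h under DMSO Abcb4 in shHDAC45 (-0.40, adjusted p = 0.040) and Cyp7b1 in GFP hepatocytes (-0.56, adjusted p = 0.023). Over all genes, forskolin in GFP hepatocytes at 2 h called 1651 genes, with 1087 from the compared arrays and 1041 on leaving out array A of GFP DMSO 2 h. In shHDAC45 hepatocytes at 2 h it called 372, with 183 from the compared arrays, 1578 against the other DMSO arrays and 190 to 370 without 1 array. The interaction called 462 at 2 h, with 300 from the compared arrays, and 664 at 4 h, with 418 to 636 without 1 array. DMSO time called 907 in GFP hepatocytes, with 538 from the compared arrays and 502 to 918 without 1 array, and 669 in shHDAC45, with 355 and 371 to 677.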
